A study of Mus musculus with 3 samples.

Results

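The genes described here are 10 genes of blood and lymphatic endothelium, taken by symbol from the 52636 genes counted in RNA-seq libraries of 3 normal mouse thymi: Pecam1, Cdh5, Esam, Cldn5, Plvap, Emcn, Vwf, Eng, Lyve1 and Prox1. All 10 were found with 1 gene identifier each, and 9 had enough reads to enter the test across genes; Prox1 did not. The study compared T cell lymphomas lacking Cic, which encodes the repressor capicua, with thymus of littermates. Only the thymi are described here: C57BL/6 mice labelled Cic flox/flox + TAM, which were given tamoxifen and kept in standard housing. Floxed Cic and tamoxifen are thus shared by all 3 libraries, called thymus 1, 2 and 3 after the labels. The labels for this group name no Cre, age or sex, and do not say whether each library is 1 animal, so the spread between libraries may be technical in part. The labels give no second group, and no contrast between conditions was made.

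Endothelial cells line blood and lymphatic vessels. In the thymus, vessels bring in lymphoid progenitors and carry away mature T cells, which enter blood and lymph. Endothelial cells are held together by adherens and tight junctions. Lymphatic endothelium depends on the transcription factor encoded by Prox1 and displays the hyaluronan receptor encoded by Lyve1. In RNA from a whole organ, fewer cells of a type and less RNA per cell cannot be told apart.

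The libraries held 25408442 to 30414788 reads assigned to genes on the transcribed strand, which was 66.4% to 69.1% of all reads. Levels are CPM, a gene's share of its library's reads with library sizes scaled by TMM, with the SD over the 3 libraries. Levels of different genes are compared only as CPM per kilobase of merged exons. At 3 reads a gene lay at 0.0986 to 0.122 CPM, depending on the library. Cic itself was at 264 ± 6.24 CPM (SD, n = 3) in these control thymi. All 8 double-positive thymocyte genes listed reached 10 CPM in every library, as did 9556 of the 16548 genes tested, and they were led per kilobase by Cd8b1 at 830.4 ± 20.0 and Dntt at 751 ± 88.8 CPM per kilobase.

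Promoter sequences from RefSeq (GRCm38.p6) could be matched for 4 of the 10 genes, Eng, Emcn, Cldn5 and Prox1. They were searched for short words that ETS factors, known regulators of endothelial genes, recognise, and for the octamers of capicua. The 250 bases upstream of the start are printed 5′ to 3′ for Eng, Emcn and Cldn5. Each match to the ETS word AGGAAG, on either strand, is in capitals.
Eng (chr2:32646345-32646594, plus strand): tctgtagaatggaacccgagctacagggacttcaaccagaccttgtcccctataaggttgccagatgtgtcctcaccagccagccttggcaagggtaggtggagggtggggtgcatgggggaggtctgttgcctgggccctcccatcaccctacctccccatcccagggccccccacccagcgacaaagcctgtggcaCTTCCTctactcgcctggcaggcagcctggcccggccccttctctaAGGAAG
Emcn (chr3:137340828-137341077, plus strand): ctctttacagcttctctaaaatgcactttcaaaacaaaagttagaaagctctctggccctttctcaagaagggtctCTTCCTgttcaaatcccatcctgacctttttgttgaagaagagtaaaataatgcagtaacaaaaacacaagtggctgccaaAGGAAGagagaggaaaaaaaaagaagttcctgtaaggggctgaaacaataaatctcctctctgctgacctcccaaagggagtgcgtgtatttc
Cldn5 (chr16:18776597-18776846, plus strand): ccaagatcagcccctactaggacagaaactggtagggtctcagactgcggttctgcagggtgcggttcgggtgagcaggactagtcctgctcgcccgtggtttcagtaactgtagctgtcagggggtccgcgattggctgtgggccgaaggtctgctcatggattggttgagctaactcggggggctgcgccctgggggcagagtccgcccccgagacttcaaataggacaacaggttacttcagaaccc
Eng, the TGF-beta co-receptor gene, held AGGAAG at 52 to 47 bases upstream on the minus strand and again at 6 to 1 bases upstream on the plus strand. Emcn, the endomucin gene, held it at 174 to 169 bases upstream on the minus strand and 93 to 88 on the plus strand. The Cldn5 window and both Prox1 windows held none. Of all 32851 promoters of 300 bases (250 upstream and 50 downstream), 35.4% held this word on either strand. The ETS word CCGGAA was in 14.9% of all promoters and in 0 of the 5 windows of these 4 genes. The capicua octamers TGAATGAA and TCAATGAA were in 1.30% and 0.749% of all promoters and in 0 of the 5 windows. These matches describe letters only.

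Pecam1, which encodes the adhesion molecule CD31 of endothelial junctions and is also known on leukocytes and platelets, held most of the reads of the group. It stood at 102 CPM in thymus 1, 113 in thymus 2 and 92.2 in thymus 3 (102.7 ± 10.6, SD, n = 3), from 3116, 3327 and 2272 reads. It supplied 75.6%, 76.1% and 77.1% of the reads of all 10 genes in thymus 1, 2 and 3. The gene lies on chromosome 11 (106654217 to 106750628, minus strand, GRCm38). Cdh5, which encodes VE-cadherin, the adherens-junction cadherin restricted to endothelium, was far lower. It had 106, 157 and 82 reads, or 3.48, 5.35 and 3.33 CPM (4.05 ± 1.13), and thymus 2 stood above the other two. Per kilobase of exon, Pecam1 was 19.8, 14.3 and 18.7 times Cdh5 in thymus 1, 2 and 3, a ratio of 17.6 ± 2.92. The ranges of the pair did not overlap on that scale.

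The other junction genes were of the same order as Cdh5. Esam, an immunoglobulin-type adhesion molecule gene of endothelial tight junctions, was at 4.60, 3.99 and 3.53 CPM (4.04 ± 0.538). Cldn5, which encodes the claudin of endothelial tight junctions, was at 2.56, 2.66 and 1.91 CPM (2.38 ± 0.410). Thymus 3 was the lowest for both. Per kilobase, Esam was 1.53 ± 0.423 times and Cldn5 1.79 ± 0.362 times Cdh5, above it in all 3 libraries. Cdh5 (chromosome 8, 104101625 to 104144511) and Esam (chromosome 9, 37528078 to 37538319) have several annotated transcripts, and Cldn5 (chromosome 16, 18776847 to 18778262) has 1.

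Among surface genes of small vessels, Plvap and Emcn differed in level. Plvap encodes the protein of the diaphragms of fenestrated capillaries and caveolae. It was at 5.49, 5.83 and 3.89 CPM (5.07 ± 1.03), with thymus 3 well below the other two. Emcn encodes endomucin, a sialomucin of capillary and venous endothelium. It was at 1.77, 1.64 and 2.27 CPM (1.89 ± 0.334), and was the only one of the 10 genes that was highest in thymus 3. Per kilobase, Plvap stood at 2.55 ± 0.520 and Emcn at 0.350 ± 0.0618 CPM per kilobase, ranges that did not overlap.

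Vwf encodes von Willebrand factor, which endothelial cells and megakaryocytes store and release for platelet adhesion. It was at 3.55, 2.93 and 2.43 CPM (2.97 ± 0.559), from 108, 86 and 60 reads. Spread over 16.1 kilobases of merged exons, this came to 0.185 ± 0.0348 CPM per kilobase, the lowest but one of the group. Eng, which encodes endoglin, a co-receptor for ligands of the TGF-beta and BMP families, was at 10.6, 11.6 and 8.76 CPM (10.3 ± 1.45). Only Pecam1 and Eng exceeded 5 CPM in every library. Endoglin is also known on macrophages and stromal cells.

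In CPM both lymphatic genes were at the bottom of the range. Per kilobase of merged exons, however, Lyve1 stood above Vwf in all 3 libraries. Lyve1 had 22, 31 and 24 reads, or 0.723, 1.06 and 0.974 CPM (0.918 ± 0.174), and the exact 95% Poisson intervals of these counts overlapped (13.8 to 33.3, 21.1 to 44.0 and 15.4 to 35.7 reads). Prox1 had 10, 15 and 6 reads, or 0.329, 0.511 and 0.243 CPM (0.361 ± 0.137). Its counts also had overlapping intervals, 4.80 to 18.4, 8.40 to 24.7 and 2.20 to 13.1 reads. Prox1 was the only member below 1 CPM in every library. Per kilobase, Lyve1 was at 0.335 ± 0.0753 and Prox1 at 0.0439 ± 0.00630 times the level of Cdh5. Prox1 is also known in some cells outside lymphatics, and Lyve1 on tissue macrophages. Such intervals are on reads not scaled for library size, and cover counting error only, since the reads carry no molecular identifiers.

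**Figure D1:**
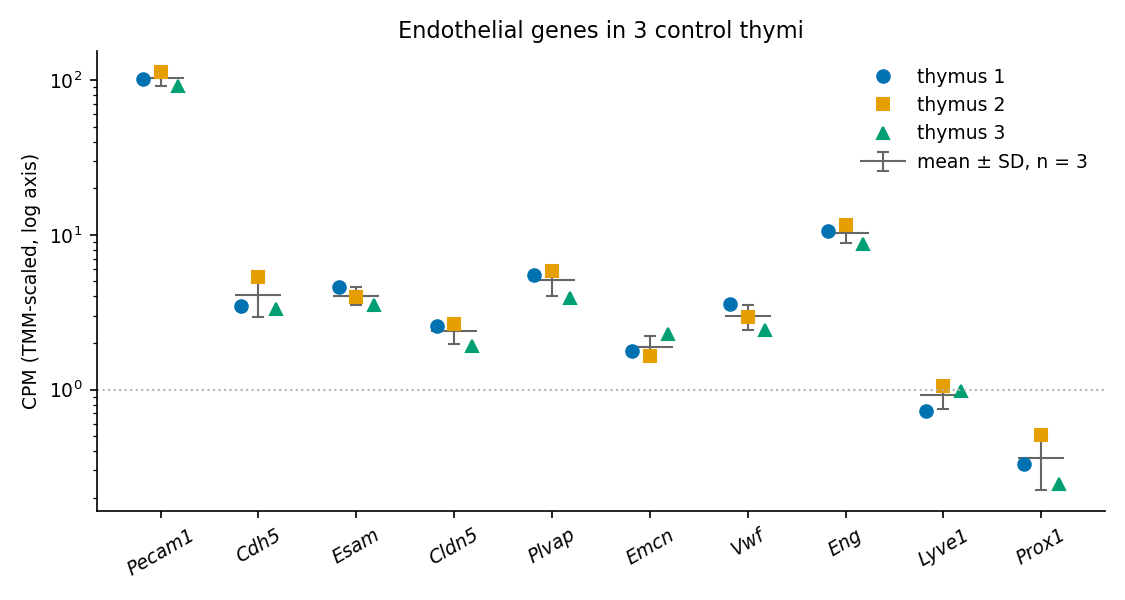
Level of each endothelial gene in each control thymus, in CPM on a log axis, with the mean and SD (n = 3) in grey and a dotted line at 1 CPM. Pecam1 sits at 92.2 to 113 CPM, the next gene, Eng, at 8.76 to 11.6, and Prox1 lies below the dotted line in all 3 libraries.

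Ordered by CPM per kilobase of exon, the genes ran Pecam1 (16.5 ± 1.71), Plvap (2.55 ± 0.520), Eng (2.55 ± 0.358), Cldn5 (1.68 ± 0.289), Esam (1.41 ± 0.188), Cdh5 (0.965 ± 0.268), Emcn (0.350 ± 0.0618), Lyve1 (0.314 ± 0.0595), Vwf (0.185 ± 0.0348) and Prox1 (0.0430 ± 0.0163). Neighbours whose ranges over the libraries overlapped were Plvap and Eng, Cldn5 and Esam, Esam and Cdh5, and Emcn and Lyve1. Plvap exceeded Eng in 2 of 3 libraries and Emcn exceeded Lyve1 in 2 of 3, so neither pair has a fixed order. The other 5 neighbouring pairs had ranges that did not overlap, and Pecam1 was 6.57 ± 0.858 times the next gene. The smallest two-sided p of an exact sign-flip permutation over 3 libraries is 0.25, so no test of the order is given.

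Merged exons overstate the length of a gene with many partial transcripts, and the choice of length moved parts of this order. Over the longest protein-coding transcript, chosen after the values had been seen, Pecam1 was at 29.8 ± 3.09 CPM per kilobase and Prox1 at 0.0456 ± 0.0173, still first and last. Eng (3.02 ± 0.423) then stood above Plvap (2.55 ± 0.520), and Esam (2.17 ± 0.288) above Cldn5 (1.68 ± 0.289). Vwf (0.336 ± 0.0633) stood above Lyve1 (0.317 ± 0.0601), although their ranges had not overlapped over merged exons. Emcn stood at 0.732 ± 0.129 on this scale, which takes 2.59 kilobases of transcript in place of 5.41 of merged exons.

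**Figure D2:**
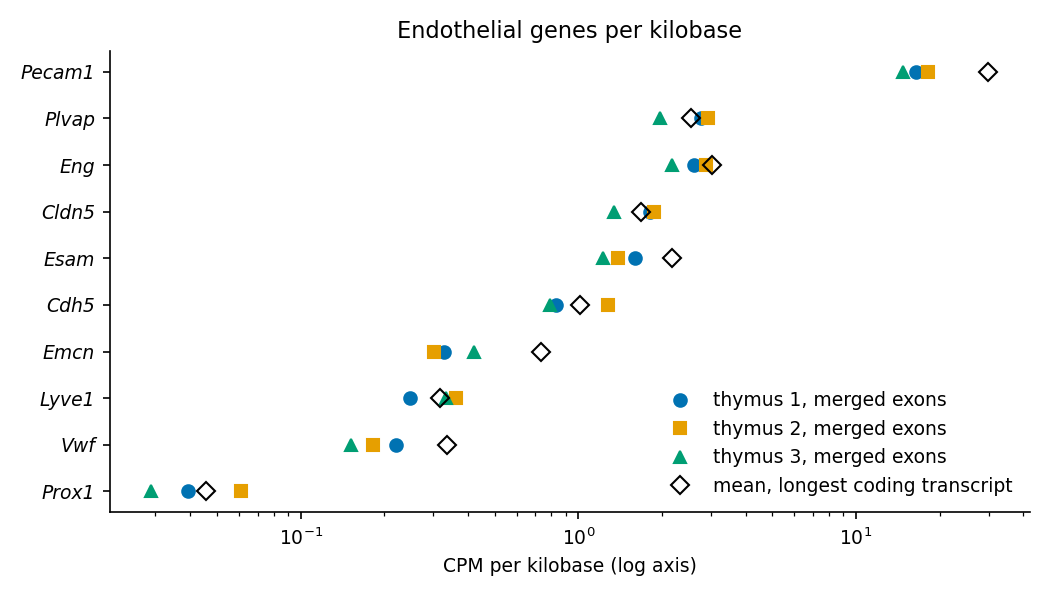
CPM per kilobase of merged exons for each gene in each thymus (filled symbols, log axis), and the mean over 3 libraries per kilobase of the longest coding transcript (open diamonds). Pecam1 is set apart at 14.8 to 18.2 CPM per kilobase, and the diamonds lie furthest from the filled symbols for Emcn, Vwf and Pecam1.

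Against all 16548 genes tested, most of the group was low. Pecam1 lay at the 77.8th percentile of CPM per kilobase, Plvap and Eng at the 37.6th, Cldn5 at the 30.7th, Esam at the 28.0th and Cdh5 at the 22.7th. Emcn (9.58), Lyve1 (8.41) and Vwf (4.15) lay below the tenth percentile. Prox1, which had too few reads to enter the set of genes tested, stood above 0.115% of them. That set leaves out genes of few reads, so this is not a rank among all genes counted. The median of the 10 genes was 3.52, 3.46 and 2.88 CPM in thymus 1, 2 and 3, and 1.19 CPM per kilobase, beside medians of 18.8 CPM and 4.99 CPM per kilobase over all genes tested.

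The next question was how far the thymi differed in these genes, which is the replicate error for any later comparison with this tissue. By edgeR's quasi-likelihood test with Benjamini-Hochberg adjustment, 0 of the 9 tested genes exceeded the spread between thymi that is usual for genes at their level, where 0.0604% of all genes tested did. None of the 9 had an unadjusted p under 0.05 (all genes: 4.42%), and DESeq2's dispersion check marked 0 of 9 (all genes: 0.489%). The smallest unadjusted p was that of Cdh5, at 0.103 (edgeR adjusted p = 0.984), whose highest library was 1.61 times its lowest. Variation beyond counting noise was found in 4 of 9 genes by a Poisson goodness of fit in edgeR, which is 44.4% beside 43.4% of all genes tested. Those were Pecam1, Cdh5 (adjusted p = 0.000767), Plvap (adjusted p = 0.00972) and Eng (adjusted p = 0.0123), all by that edgeR test. For Emcn, Vwf, Esam, Cldn5 and Lyve1 the adjusted p by the same edgeR test was 0.112 to 0.485. A difference between thymi was not detected in these genes, at 77 to 344 reads in all, while Cdh5 had 345. The ratio of highest to lowest library over the 9 genes ran from 1.23 for Pecam1 to 1.61 for Cdh5, and was 2.10 for the untested Prox1. Their median coefficient of variation was 17.6%, beside 9.06% for all genes tested, which have a higher median level.

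Thymus 3 was the lowest library for 7 of the 9 tested genes, where 39.7% of all genes tested were lowest there. The exceptions were Emcn, lowest in thymus 2, and Lyve1, lowest in thymus 1. Thymus 2 was the highest for 6 of the 9, beside 38% of all genes tested. The order thymus 2, 1, 3 was shown by Pecam1, Cdh5, Plvap, Cldn5 and Eng, 5 of 9 beside 25.8% of all genes tested, and by the untested Prox1 as well. Vwf and Esam ran thymus 1, 2, 3. The libraries also differed with the GC content of transcripts. Across 16522 genes, which are not independent, GC content and a library's deviation from each gene's mean had Spearman correlations of −0.157 (thymus 1), 0.408 (thymus 2) and −0.288 (thymus 3). Emcn, the member highest in thymus 3, had the lowest GC content of the tested members, at 40.7%, and Plvap, with the lowest value there (log2 deviation −0.35), the highest, at 60.6%. With the GC trend removed, thymus 3 was still lowest for 7 of the 9 genes (all genes: 38.7%), and Plvap stood at −0.30 and Emcn at 0.18 in place of 0.27. Plvap and Cldn5 then had thymus 1 as the highest library in place of thymus 2.

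**Figure D3:**
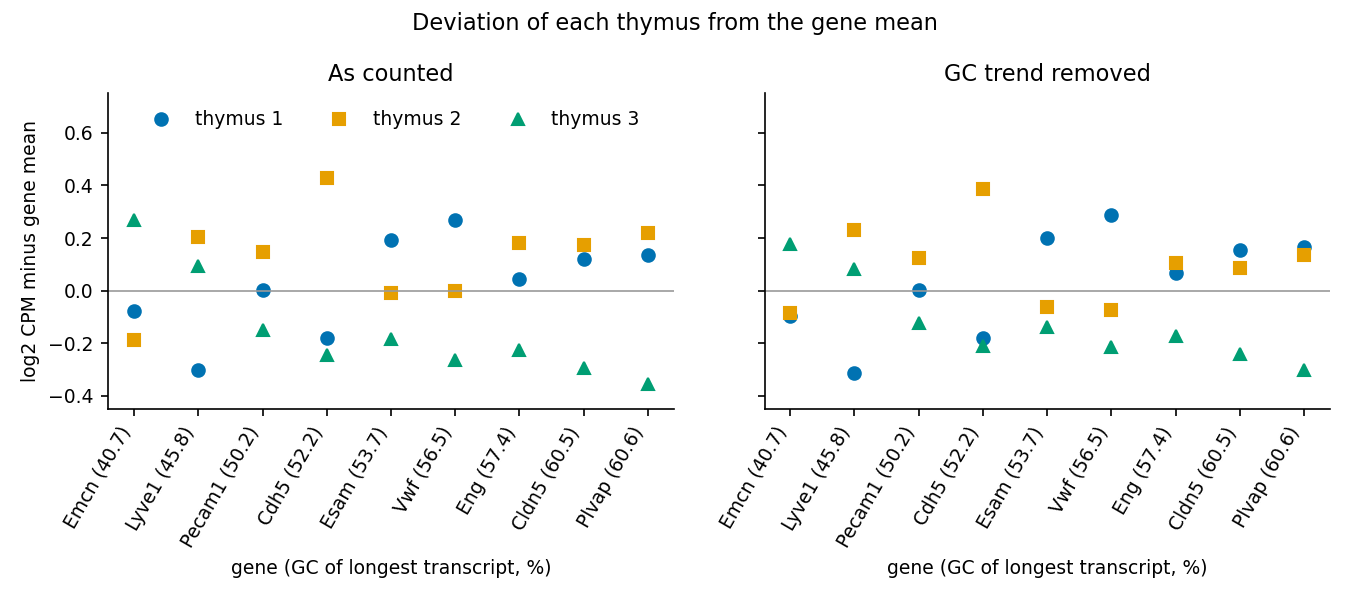
Deviation of log2 CPM from the gene mean in each thymus for the 9 tested genes, ordered by GC content, as counted (left) and with the GC trend removed (right). Green triangles for thymus 3 lie lowest for all but Emcn and Lyve1 in both panels, and Emcn falls from 0.27 to 0.18 on the right.

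The genes whose pattern over the 3 libraries was nearest to the median of the 9 members were Ticam1, St3gal1, Arsg, Zfp74 and Rhog. Their root mean square difference in log2 deviation was 0.00445 to 0.00549, over 3 libraries only. Of 14170 other genes at 1 CPM or more in every library, 17.5% lay within 0.1 of that median pattern, so nearness picks out a pattern shared by many genes.

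Of 20 further pan-endothelial genes 4 reached 10 CPM in every library and 1, Myct1, was below 1 CPM in every library. The most abundant per kilobase were Icam2, an adhesion molecule gene also known in lymphocytes (40.5 ± 0.911 CPM per kilobase), the water channel gene Aqp1 (12.2 ± 0.348), the caveolin gene Cav1 (6.34 ± 1.56) and the sialomucin gene Cd34 (2.88 ± 0.310). Their list median was 0.530 CPM per kilobase. Thymus 3 was the lowest library for 5 of the 20, beside 8 of the 10 members (the untested Prox1 included) and 39.7% of all genes tested. The difference between these lists was not tested.

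Of 13 genes of the VEGF and angiopoietin system 4 reached 10 CPM in every library. Per kilobase the list was led by the ligand genes Vegfb (9.40 ± 1.27 CPM per kilobase), Vegfa (4.89 ± 0.338) and Angpt1 (4.89 ± 1.17), and by the co-receptor gene Nrp1 (3.11 ± 0.197). Vegfc and Vegfd, the ligands of the lymphatic receptor, and Flt4, that receptor, were below 1 CPM in every library, with Flt4 at 0.630 ± 0.0328 CPM from 18, 19 and 16 reads. Around endoglin, 7 of 13 TGF-beta and BMP genes reached 10 CPM in every library, led by the receptor gene Tgfbr1 (29.6 ± 2.16 CPM per kilobase), Smad5 (26.2 ± 0.702), the ligand gene Tgfb1 (14.1 ± 2.47) and Tgfbr2 (11.8 ± 1.79), which thymocytes also express. Gdf2 and Bmp10, whose products are ligands of endoglin, were below 1 CPM in every library.

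Ets1 (115 ± 9.27 CPM per kilobase) and Fli1 (19.8 ± 0.103), which are also known in T cells, led the list of 14, with Hey1 at 5.22 ± 0.164 CPM per kilobase and Klf2 above it, at 20.3 ± 1.77 CPM before division by its length. Sox7, Gata2, Tal1, Foxc2 and Foxf1 were below 1 CPM in every library. All 12 junction partners exceeded 1 CPM in at least 1 library, led by the beta-catenin gene Ctnnb1 (96.7 ± 5.61 CPM per kilobase), Ptpn11, a phosphatase gene (16.6 ± 0.622), the plakoglobin gene Jup (9.07 ± 1.88) and F11r (6.97 ± 0.736). None of these 4 is restricted to endothelium.

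Of 8 arterial genes 3 reached 10 CPM in every library, namely the Notch ligand genes Dll4 (3.52 ± 0.471 CPM per kilobase) and Jag1 (1.97 ± 0.179) and the ephrin gene Efnb2 (1.73 ± 0.206). Gja4, a connexin gene, followed (0.869 ± 0.237), and Gja5 was below 1 CPM in every library. Dll4 and Jag1 are also known in thymic epithelium. Capillary genes were led by Rgcc (194 ± 16.9 CPM per kilobase), Fabp4 (20.5 ± 3.89), Cd36 (13.5 ± 1.02) and Lpl (6.84 ± 1.22), with the last 3 also known in fat or macrophages. The list median was 4.22 CPM per kilobase, far below Rgcc, and which cells supplied the Rgcc reads was not tested. Tcf15 was below 1 CPM in every library. Thymus 3 was the lowest library for only 1 of the 8 capillary genes, the untested Tcf15 (4, 6 and 2 reads), beside 39.7% of all genes tested. Thymus 1 was the lowest for 6 of the 8. Venous and portal genes were led by the adhesion genes Vcam1 (21.3 ± 0.615 CPM per kilobase) and Icam1 (15.5 ± 1.73), by Ltbr, the lymphotoxin receptor gene (7.12 ± 0.942), and by Ephb4 (0.872 ± 0.0721). Which cells supplied the Vcam1 and Icam1 reads was not tested either. The selectin genes Selp and Sele and the addressin gene Madcam1 were below 1 CPM in every library. P-selectin is an adhesion molecule with a part in the entry of progenitors into the thymus, and Selp was at 0.853 ± 0.0346 CPM.

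Further lymphatic genes repeated the low levels of Prox1 and Lyve1 only in part. Mmrn1 and Reln were below 1 CPM in every library, Mmrn1 with 3, 5 and 3 reads. Thy1 (500.4 ± 22.2 CPM per kilobase), which is known as a thymocyte surface gene, led the list, followed by Pdpn (2.89 ± 0.426), also known in epithelium and fibroblasts, Nts (1.75 ± 0.130) and Stab2 (1.12 ± 0.314). Thymus 3 was the lowest library for 1 of the 7 genes on this list, beside 39.7% of all genes tested. Pericyte and smooth muscle genes were led by Rgs5 (12.3 ± 0.651 CPM per kilobase), Notch3 (6.88 ± 1.22), also known in thymocytes, Tagln (5.91 ± 0.871) and Myh11 (2.28 ± 0.341). Thymus 3 was the lowest library for 7 of these 10 genes, beside 39.7% of all genes tested. Mesenchymal genes were led by Dcn (16.8 ± 2.86 CPM per kilobase), Dpt (9.44 ± 0.268), Lum (5.95 ± 1.01) and Col3a1 (2.51 ± 0.267).

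**Figure D4:**
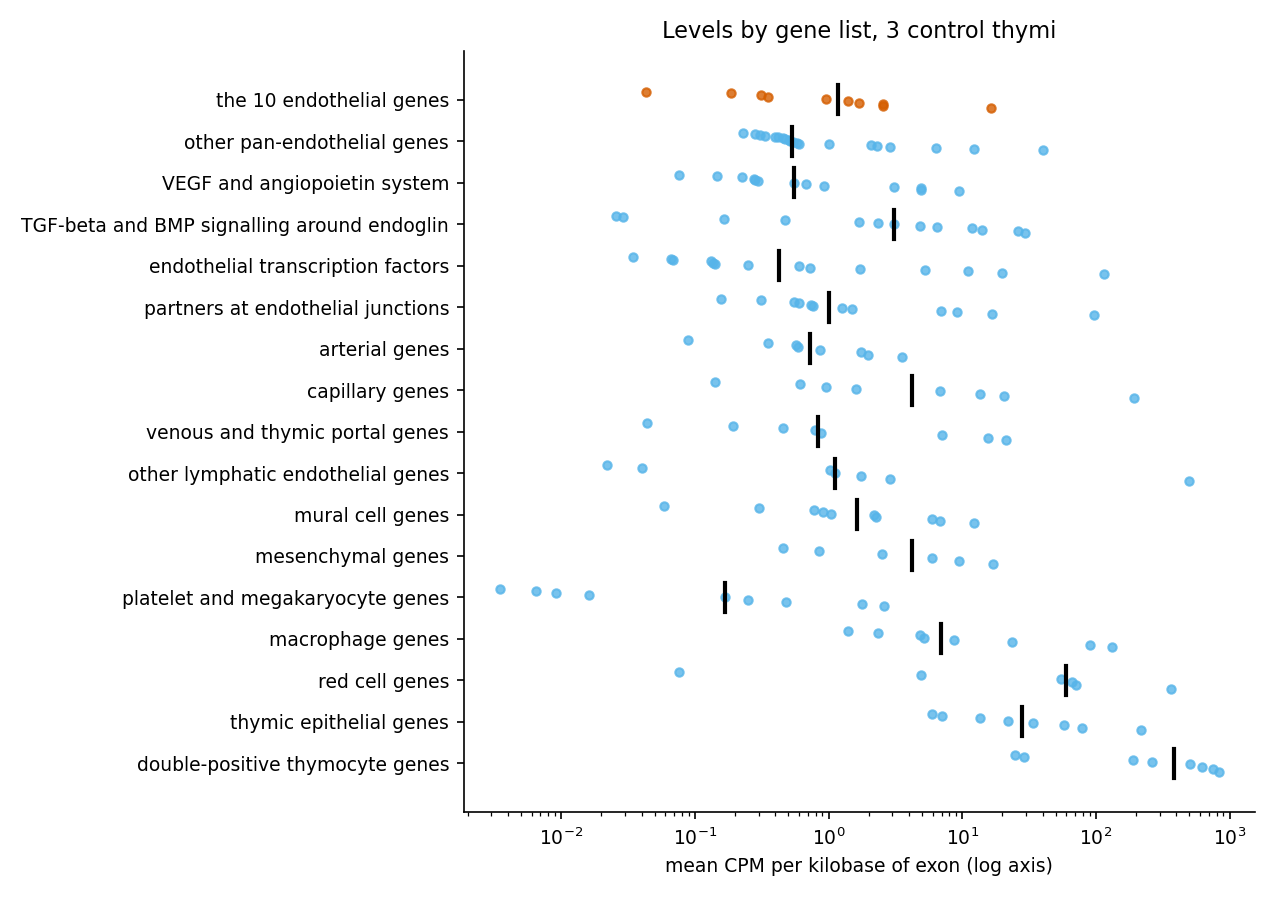
Mean CPM per kilobase of exon for each gene (points, log axis) in the 10 endothelial genes (orange) and 16 other lists (blue), with the list median as a black bar. The 10 genes have a median of 1.19 CPM per kilobase, below that of double-positive thymocyte, thymic epithelial, red cell and macrophage genes and above that of platelet genes.

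Cells that share endothelial transcripts were checked by their own genes. Of 9 platelet and megakaryocyte genes 6 were below 1 CPM in every library, and among these Gp1ba, Gp1bb and Treml1 had 0 to 2 reads per library, under the 3-read limit. Other genes typical of that lineage were detected in every library: Itga2b had 82, 68 and 69 reads, Pf4 77, 47 and 36, and Clec1b 362, 203 and 208. Their part in the levels of Vwf, Pecam1 and Esam was not tested. The summed level of the list was 17.4, 11.1 and 13.6 CPM in thymus 1, 2 and 3, mostly from Clec1b (9.09 ± 2.55 CPM). Per kilobase it was led by Pf4 (2.59 ± 0.806 CPM per kilobase), Clec1b (1.78 ± 0.4999), Itga2b (0.478 ± 0.0464) and Ppbp (0.249 ± 0.271). Macrophage genes were plentiful: 6 of 8 reached 10 CPM in every library, led per kilobase by Cbr2 (132 ± 18.5 CPM per kilobase), C1qa (91.0 ± 6.96), F13a1 (23.6 ± 0.366) and Adgre1 (8.73 ± 0.372). Their summed level was 525, 532 and 489 CPM, and 6 of the 8 were lowest in thymus 3, beside 39.7% of all genes tested. Their part in the levels of Pecam1, Eng and Lyve1 was not tested.

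Red cell genes ran in another order from the endothelial genes. Hbb-bs, Hba-a1, Hbb-bt, Hba-a2 and Alas2, 5 of the 5 tested, varied beyond the abundance trend (edgeR quasi-likelihood, Benjamini-Hochberg 0.05), and all 5 were highest in thymus 1 and lowest in thymus 2. Their summed level was 1025, 47.1 and 224 CPM in thymus 1, 2 and 3, while that of the 10 endothelial genes was 136, 149 and 119.5. The globin genes come as pairs of near-identical copies (Hba-a1 with Hba-a2, Hbb-bs with Hbb-bt), and their single levels are uncertain. Thymic epithelial genes, led by Prss16 (217 ± 12.4 CPM per kilobase), Krt8 (78.2 ± 1.21), Krt5 (58.0 ± 9.24) and Psmb11 (34.0 ± 2.11), were lowest in thymus 3 for 6 of 8, beside 39.7% of all genes tested. Above that share were also junction partners (9 of 12), venous and portal genes (6 of 8), arterial genes (5 of 8), endothelial transcription factors (8 of 14) and the VEGF list (6 of 13). Below it were TGF-beta and BMP (5 of 13), mesenchymal (2 of 6), thymocyte (1 of 8), platelet (1 of 9) and red cell genes (0 of 6). Unlike the share over all genes tested, these list counts include genes with too few reads to be tested. Among those, Foxc2, Sele and Bmp10 were lowest in thymus 3. Rag1 (617 ± 25.6 CPM per kilobase) and Cd8a (503 ± 10.6) completed the leading thymocyte genes. Over the 15 lists other than red cells, edgeR's quasi-likelihood test called 0 of 137 tested genes, with 13 at an unadjusted p under 0.05, which is 9.49% beside 4.42% of all genes tested. DESeq2's dispersion check marked 1 of the 137, the macrophage gene Timd4 (0.730% beside 0.489%).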

How the data were processed

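The authors deposited unnormalised counts of reads for each gene in STAR's layout, a file per thymus. Per the submitters' processing notes the authors used GRCm38, STAR 2.5.3a and DESeq2 (version not named), and per the labels' protocols the library kit was TruSeq Stranded mRNA. Neither annotation release nor trimming is given in the sources used here. Reverse-strand counts were used, which held 96.6% of the stranded gene reads in this kit's libraries. The layout's 4 summary lines entered no library size. Of 52636 identifiers 52489 matched GENCODE M21, which gave symbols, coordinates (1-based) and lengths.

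Here edgeR 4.0.16 and DESeq2 1.42.0 were run under R 4.3.3. After edgeR's expression filter (minimum count 10, total 15) 16548 genes remained, and TMM factors were 1.00, 1.03 and 0.971. The variability test referred each gene's quasi-dispersion over the trended prior, from an intercept-only robust edgeR fit, to the upper tail of an F distribution (prior degrees of freedom 5.24); p-values were adjusted by Benjamini-Hochberg over all genes, with a threshold of 0.05. Deviations are log2 CPM with a prior count of 2, and the GC trend was a lowess curve of span 0.3 per library. Of the members' 50-base stretches, at most 0.998% (Pecam1) occur in transcripts of other genes.

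The members, lists and tests were chosen with earlier results of these data known. Named genes are the 10 members, the 4 most abundant per kilobase of each other list, list genes called variable, genes below 1 CPM in every library where a list has 5 or fewer, and the 5 nearest in pattern. Timd4, Gp1ba, Gp1bb and Treml1 were named after their values were seen. Some genes of these lists are not reported here by name. Ccl21a matched 2 identifiers and was left out of its list. Alternatives were other columns, scalings, filters, tests and lengths, and each library left out.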

Additional observations from a re-analysis of the deposited data

Results flagged for a closer look

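Reads on the strand opposite to the gene, which no comparison above uses, exceeded the 3-read limit in every library for 3 of the 10 genes. Plvap had 42 such reads over the 3 libraries (15, 12 and 15), which is 8.82% of its stranded reads, beside 3.40% over all genes. Gtpbp3 overlaps the Plvap gene on the other strand by 1819 bases, 0 of them in exons of both. Pecam1 had 41 (11, 17 and 13), or 0.468%, with no annotated gene overlapping it. Eng had 35 (10, 15 and 10), or 3.83%, and shares 61 bases of exon with Fpgs on the other strand. The source of these reads was not tested. Of the other 7 genes Esam had 1 such read and the rest 0.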

How the results depend on the processing

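No paired analysis was possible because the labels give 1 group. The count of members called variable by edgeR was 0 in the main analysis and 0 under each alternative run. The count over all genes, 10 by edgeR with TMM, was 10 with either-strand counts and 9 with DESeq2 size factors, but 285 with no filter, 20 with library totals and 81 by DESeq2's dispersion check. With 1 library left out it ran from 23 (without thymus 2) through 25 (without thymus 1) to 137 (without thymus 3), on 2 libraries each. The median level of the 10 genes per kilobase was 1.19, and 1.35 with the length of the longest coding transcript, which is shorter than the merged exons for 8 of the genes. It ran from 1.10 to 1.29 with a library left out. The median in CPM, 3.29 as the mean of the library medians, ran from 3.16 to 3.54 over the alternatives. Each of 30 levels of a member recomputed with either-strand counts, DESeq2 size factors or library totals stayed within 1 SD of its value, and each of 9 ratios of highest to lowest library stayed within its counting interval with the GC trend removed. Thymus 3 was lowest for 7 of the 9 tested members with either-strand counts, DESeq2 size factors, library totals or the GC trend removed. Depth limits Prox1 and Lyve1 most, with 31 and 77 reads in all.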
